A study of Mus musculus with 18 samples.

Results

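The Ifitm family is described here through its members Ifitm1, Ifitm2, Ifitm3 and Ifitm6, found by gene symbol as 4 of the 22787 genes in the table. They were picked because Ifitm1 lay on opposite sides of its control in the 2 knockouts measured, so the knockout values of the family are given as a description and carry no test. All 4 members passed the filter on low values in progenitors and in Hoxb8 cells. The table holds 3 more Ifitm symbols, and all of these stayed low: the highest value in any library was 5.64 for Ifitm5, 10.6 for Ifitm7 and 2.54 for Ifitm10.

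Ifitm genes encode short membrane proteins that sit in the plasma membrane, endosomes and lysosomes. Interferons bind their receptors, JAK kinases then activate transcription factors, and these switch on the family together with many other antiviral genes. The proteins hinder the fusion of enveloped viruses with the cell membrane. Ifitm3 acts mainly in late endosomes and lysosomes, Ifitm1 mainly near the cell surface, and Ifitm2 is a close relative of Ifitm3. Blood stem cells are known to hold part of this antiviral programme switched on without added interferon. Ifitm6 is a mouse member found mainly in myeloid cells.

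RNA was measured by SmartSeq2 low-input sequencing in 18 mouse libraries of 7 groups. Granulocyte-monocyte progenitors (GMPs), which give rise to neutrophils and monocytes, were sorted from bone marrow at 10000 cells a sample by the presence of c-kit and Fcγ receptor II/III, low CD34 and Ly6C, and absence of lineage markers, Sca-1, CD127 and CD135. Mice lacking Raptor (Raptor KO) or Tsc2 (Tsc2 KO) were each set beside floxed controls (Raptor fl/fl or Tsc2 fl/fl), with 3 libraries a group. Raptor is part of the growth kinase complex mTORC1, whose activity Tsc2 restrains. DR-ER-Hoxb8 cells, 1 immortalized myeloid progenitor line kept immature by estradiol, were grown without estradiol for 3 days in DMSO, in rapamycin at 100 nM or in SL0101-01 at 10 nM (called SL0101 below), with 2 libraries each. All 3 of these groups were also in medium with stem cell factor. Rapamycin inhibits mTORC1, and SL0101 is an inhibitor of the RSK kinases. The means of deletion and the age of the mice are not given in the sources used here.

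Values below are normalized fragments, that is fragments per gene divided by 1 size factor per library. Depth ran from 2.48 to 3.52 M fragments per GMP library and from 2.31 to 3.30 M per Hoxb8 library. Tsc2 was lower in Tsc2 KO (95.1 ± 10.8, SD, n = 3) than in Tsc2 fl/fl (248 ± 18.0, n = 3), and Rptor was 63.3 ± 5.61 in Raptor KO against 84.5 ± 5.11 in its controls (n = 3 each). Summed Y-linked expression over 4 genes was 384.9 in replicate 2 of Tsc2 fl/fl and 317.7 in replicate 2 of Tsc2 KO, and at most 0.778 in the other 10 GMP libraries. Of the 10 granulocyte progenitor markers, all were tested in both kinds of cells; their summed level ranged from 63401 to 81067 in the Raptor groups and from 36151 to 82008 in Tsc2 controls, but from 7676 to 39549 in Tsc2 KO. Summed, these markers were present in every GMP library, with a lower mean in Tsc2 KO. In replicates 2 and 3 of Tsc2 KO the 10 erythroid genes summed higher, to 25964 and 23464 against 7676 and 11735. In replicate 1 the erythroid sum was lower, at 13086 against 39549. The label GMP below names the sort, and the share of each cell type in a library was not tested. In bulk libraries, fewer cells that express a gene and less of its RNA per cell cannot be told apart.

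The stretches from 250 to 51 bases before the RefSeq start of 3 members are shown because their knockout values were not all alike. Ifitm1 and Ifitm3 lay on opposite sides of their controls, and Ifitm2 differed in 1 knockout only. They are from RefSeq on GRCm38.p6, read 5′ to 3′ on the gene's strand, and no annotated exon of an Ifitm gene overlaps them. Capitals mark 1 run of 11 bases that Ifitm2 and Ifitm3 share there, and no shared run is longer. Another run of 11 bases, agtaatttgat, is also shared and is not marked. Ifitm1 shares at most 8 bases with either.
Ifitm1, chr7:140967826-140968025, + strand: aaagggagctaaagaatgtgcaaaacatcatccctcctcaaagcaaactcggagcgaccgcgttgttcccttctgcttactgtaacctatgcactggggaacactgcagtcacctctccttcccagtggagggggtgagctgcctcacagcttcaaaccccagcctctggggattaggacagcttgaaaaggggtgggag
Ifitm2, chr7:140956012-140956211, - strand: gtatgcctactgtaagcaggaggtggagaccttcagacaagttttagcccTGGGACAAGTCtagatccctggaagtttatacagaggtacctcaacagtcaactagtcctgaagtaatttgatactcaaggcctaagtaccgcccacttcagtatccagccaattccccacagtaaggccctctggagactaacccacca
Ifitm3, chr7:141010795-141010994, - strand: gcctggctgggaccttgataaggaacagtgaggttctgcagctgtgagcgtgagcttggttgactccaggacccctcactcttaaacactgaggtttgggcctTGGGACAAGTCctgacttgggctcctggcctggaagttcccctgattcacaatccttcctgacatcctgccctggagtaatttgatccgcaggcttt

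The full windows of 300 bases, from 250 before to 50 after the start, were searched on both strands for GAAA followed by any 2 bases and GAAA again, the core of the interferon-stimulated response element, a site through which interferons switch on genes, and for TTCNNNGAA, the form of a STAT site. Windows of all genes held the first in 3.44% of 32851 windows and the second in 8.30%. Ifitm2 had the response element core at position -46 from the start, Ifitm3 had it at positions 3 and 20, and Ifitm3 and Ifitm6 had TTCNNNGAA at positions 14 and -10. In Ifitm3 the STAT-type match overlaps the second of the other matches. The sites are shown with 8 bases on each side and the match in capitals, since the Ifitm1 window held none. Ifitm3 had the same knockout directions as Ifitm1, and a part of these sites in the values was not tested.
Ifitm2, chr7:140955990-140956015, response element core: accaacagGAAAAGGAAAttgctaga
Ifitm3, chr7:141010725-141010750, response element core: aaattcagGAAAAGGAAActtctgag
Ifitm3, chr7:141010708-141010733, response element core: acttctgaGAAACCGAAActgccgca
Ifitm3, chr7:141010715-141010739, STAT-type site: aaggaaacTTCTGAGAAaccgaaac
Ifitm6, chr7:141016886-141016910, STAT-type site: atatgaacTTCCTTGAAacaagagc
These letters were not found in the Ifitm1 window, and the response element core was not found in that of Ifitm6. A match describes the letters of this window only.

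The reference transcripts of the members are alike enough for the origin of a fragment to matter. Aligned over GENCODE vM21 transcripts, identity ran from 70.5% for Ifitm2 and Ifitm6 to 76.5% for Ifitm2 and Ifitm3. Ifitm1 shared 15 of its 687 stretches of 50 bases with Ifitm3, and Ifitm2 shared 20 of its 606 with Ifitm3. No other pair shared 1. All 72 member values were whole numbers of fragments within 0.01, so no value showed a fragment divided between members. A shared fragment given whole to a single member, or dropped, would also leave whole numbers, so the origin of such fragments was not tested.

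Ifitm1 separated the GMP groups most widely. The Raptor fl/fl libraries held 402, 398 and 378 normalized fragments of it, and the Raptor KO libraries 1499, 963 and 1079. The Tsc2 fl/fl libraries held 342, 228 and 355, and the Tsc2 KO libraries 25.2, 26.8 and 20.7. Each Raptor KO library lay above each Raptor fl/fl library, and each Tsc2 KO library lay below each Tsc2 fl/fl library. The means were 1180 ± 282 against 393 ± 12.7 for Raptor, 3.01-fold higher in the knockout, and 24.3 ± 3.15 against 308 ± 69.4 for Tsc2, 12.7-fold lower (SD, n = 3 each). On the log2 scale of value plus 1 the differences were 1.56 and -3.59. Among 13237 genes ranked by this difference Ifitm1 was number 320 from the highest in the Raptor comparison and number 9 from the lowest in the Tsc2 comparison. Without replicate 2 of both Tsc2 groups, the libraries with Y-linked expression, the Tsc2 difference was -3.87.

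Ifitm3, the member best known for restricting influenza virus, had the same directions over a narrower range. Controls of the Raptor pair held 269, 211 and 256, and Raptor KO libraries 657, 363 and 408. Controls of the Tsc2 pair held 195, 131 and 241, and Tsc2 KO libraries 119, 71.5 and 53.3. The knockout libraries did not overlap their controls in either pair, although replicate 1 of Tsc2 KO was close to replicate 2 of Tsc2 fl/fl. Means were 1.94-fold higher in Raptor KO and 2.32-fold lower in Tsc2 KO, with log2 differences of 0.91 and -1.24, or -1.43 without replicate 2 of both Tsc2 groups.

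Ifitm2 was lower in Tsc2 KO and had nearly equal means in the Raptor pair. It read 701, 650 and 656 in Raptor fl/fl libraries and 795, 560 and 690 in Raptor KO libraries, so the knockout libraries lay on both sides of the controls. The log2 difference was 0.01, and leaving out a library moved it between -0.11 and 0.15. Tsc2 fl/fl libraries read 547, 403 and 660 and Tsc2 KO libraries 369, 215 and 243, a 1.95-fold lower mean with a log2 difference of -0.97.

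Ifitm6 was near the detection limit in GMPs, at 3 to 31 fragments a library. Raptor fl/fl libraries held 4.33, 3.11 and 17.9, against 3.54, 5.20 and 4.70 for Raptor KO. Tsc2 fl/fl libraries held 10.4, 2.54 and 10.3, against 20.6, 4.13 and 10.4 for Tsc2 KO. All 4 groups overlapped, and the sign of its log2 differences, -0.46 and 0.49, changed when single libraries were left out, so no difference in Ifitm6 was detectable at this depth.

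Counted over the family, 2 of 4 members lay above every control library in Raptor KO and 3 of 4 lay below every control library in Tsc2 KO. The same pattern held for 13.3% of all genes tested as higher in Raptor KO and for 13.3% as lower in Tsc2 KO. Ifitm1 and Ifitm3 met both conditions, among 351 genes that did so, 2.65% of those tested. Since the knockouts chose the family, nothing is read from these counts.

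**Figure D1:**
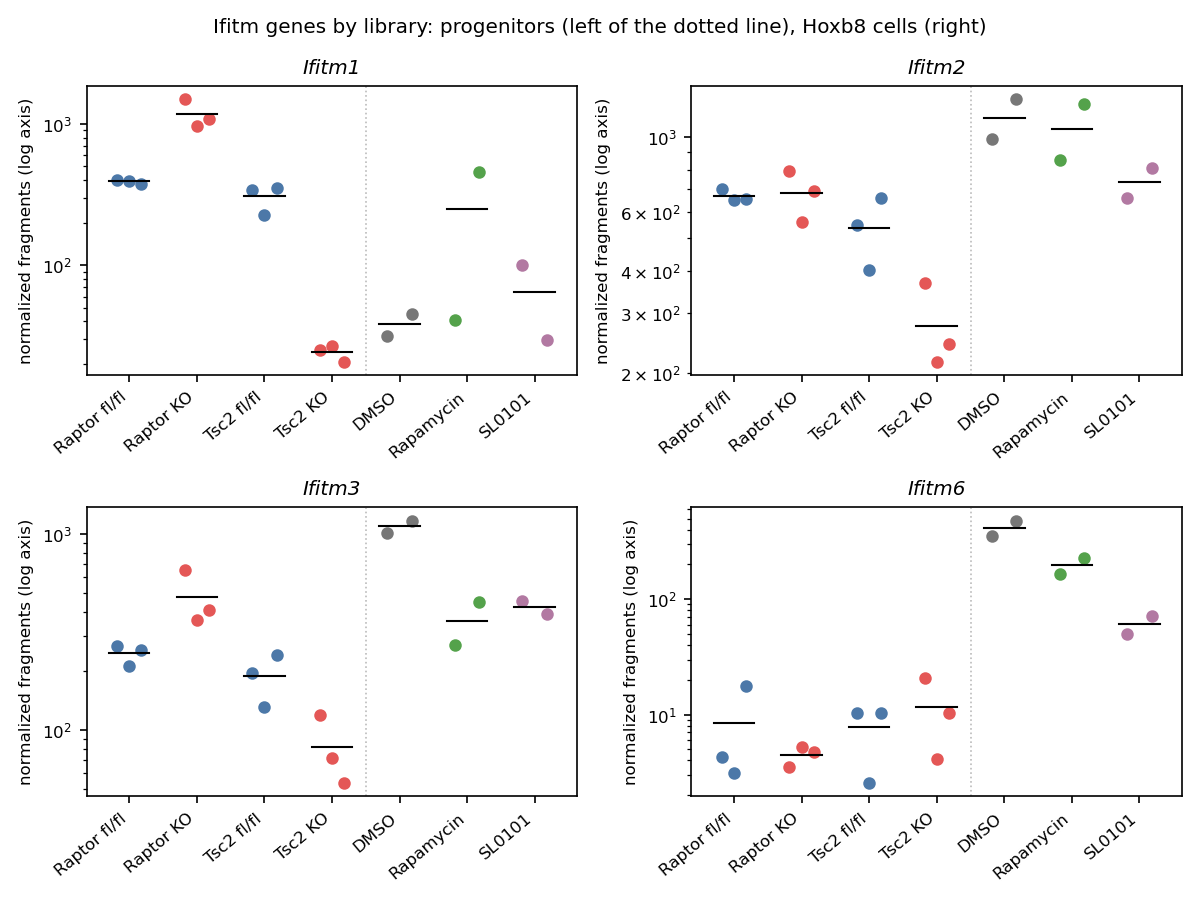
Normalized fragments (log axes, each with its own range) of the 4 members in every library, with GMP groups left of the dotted line and Hoxb8 groups right of it. Each point is 1 library and each bar a group mean. Ifitm1 runs from 20.7 in a Tsc2 KO library to 1499 in a Raptor KO library, and Ifitm6 reaches at most 20.6 in GMPs and at least 49.8 in Hoxb8 cells.

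The order of the groups differed from member to member. Ifitm1 was highest in Raptor KO, then came Raptor fl/fl, then Tsc2 fl/fl, rapamycin, SL0101, DMSO and Tsc2 KO. From Tsc2 fl/fl down to DMSO, each group overlapped the next. For Ifitm3 the order was DMSO, Raptor KO, SL0101, rapamycin, Raptor fl/fl, Tsc2 fl/fl and Tsc2 KO, and the overlapping neighbours were Raptor KO with SL0101, SL0101 with rapamycin and Raptor fl/fl with Tsc2 fl/fl. For Ifitm2 the order ran from DMSO, rapamycin and SL0101 to Raptor KO, Raptor fl/fl, Tsc2 fl/fl and Tsc2 KO. Only 2 of its 6 steps had no overlap, rapamycin to SL0101 and Tsc2 fl/fl to Tsc2 KO. Ifitm6 stepped down without overlap from DMSO to rapamycin to SL0101 to Tsc2 KO, and its remaining 3 steps overlapped. GMPs and Hoxb8 cells were not compared by a test, being different cells with separate fits.

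Members can be compared with each other only per length. Normalized fragments per kb of the first GENCODE transcript were 1021 for Ifitm2, 533 for Ifitm1, 362 for Ifitm3 and 12.7 for Ifitm6 in Raptor fl/fl (n = 3). In Raptor KO, Ifitm1 was the most abundant member at 1604 per kb (1338 with its longest transcript), above Ifitm2 at 1040 and Ifitm3 at 702. In Tsc2 KO, Ifitm2 led at 421 per kb, with Ifitm3 at 120, Ifitm1 at 33.0 and Ifitm6 at 17.6. In Hoxb8 cells in DMSO (n = 2), Ifitm2 and Ifitm3 stood at 1741 and 1610 per kb, Ifitm6 at 629 and Ifitm1 at 51.9. Ifitm1 transcripts span 560 to 882 bases, so its value per kb depends on the isoform taken.

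The Hoxb8 comparisons did not choose the family, and here members were tested with limma, adjusted by the Benjamini-Hochberg method over 11804 genes. The labels do not say that replicates were separate cultures or mice, so p-values then measure only the spread between these libraries, which may be technical. Rapamycin and SL0101 share their DMSO libraries, which ties their differences from DMSO together. With 2 libraries a group, leaving out 1 leaves a lone library that is assumed to vary like the other groups, so any p given for such a fit rests on the spread of those groups. Ifitm3 was at 1015 and 1168 in DMSO, at 270 and 448 in rapamycin and at 454 and 388 in SL0101. Both inhibitors were below both DMSO libraries, while overlapping each other. Ifitm3 fell by 1.64 log2 units in rapamycin (SE 0.18, limma adjusted p = 2.7e-06, lower in 2 of 2 libraries). In SL0101 it fell by 1.37 (limma adjusted p = 3.95e-05, lower in 2 of 2 libraries). Rapamycin and SL0101 differed in Ifitm3 by -0.27 (95% interval -0.65 to 0.11, limma adjusted p = 0.403), so a difference within that interval was not resolved.

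Ifitm6 took 3 separate levels in Hoxb8 cells. It was at 354 and 480 in DMSO, 165 and 228 in rapamycin, and 49.8 and 71.2 in SL0101, with no overlap between any groups. It fell by 1.08 log2 units in rapamycin (SE 0.21, limma adjusted p = 0.0014) and by 2.77 in SL0101 (SE 0.21, limma adjusted p = 1.37e-08). The difference between the inhibitors, at 100 nM and 10 nM, was 1.69 (95% interval 1.24 to 2.13, limma adjusted p = 7.13e-05), with rapamycin higher. Without replicate 2 of DMSO the rapamycin difference was -0.86 with a limma adjusted p of 0.098, so that call rested on this library.

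Ifitm2 was at 985 and 1296 in DMSO, 853 and 1253 in rapamycin, and 660 and 812 in SL0101. Rapamycin overlapped DMSO, and SL0101 lay below both. The difference of rapamycin from DMSO was -0.13 (95% interval -0.49 to 0.24, limma adjusted p = 0.723), and its sign changed to 0.07 without replicate 2 of DMSO and to 0.15 without replicate 1 of rapamycin. Ifitm2 fell by 0.63 in SL0101 (SE 0.18, limma adjusted p = 0.0242), a call lost without DMSO replicate 1 (adjusted p = 0.0573), DMSO replicate 2 (0.377) or SL0101 replicate 1 (0.269). Rapamycin stood 0.50 above SL0101 (95% interval 0.13 to 0.86, limma adjusted p = 0.0814), which passed without replicate 1 of rapamycin (adjusted p = 0.00959), with the library at 1253 alone in that arm.

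Ifitm1 was low in DMSO, at 31.6 and 44.8, and replicates of the inhibitors did not resemble each other. In rapamycin it was at 41.2 in replicate 1 and 459 in replicate 2, and in SL0101 at 101 in replicate 1 and 29.6 in replicate 2. The rapamycin library at 459 lay above every DMSO and SL0101 library and above every Tsc2 fl/fl library. Between the rapamycin replicates Ifitm1 had the number 7 difference by size of 11334 genes, 3.45 log2 units, while Ifitm3, Ifitm2 and Ifitm6 differed by 0.73, 0.55 and 0.47 in the same direction. Differences of at least 2 log2 units between replicates were found in 204 genes in rapamycin, 121 in DMSO and 154 in SL0101. The test gave 1.85 for rapamycin (95% interval -2.88 to 6.59, limma adjusted p = 0.579) and 0.53 for SL0101 (-4.21 to 5.26, limma adjusted p = 0.882), intervals too wide to tell a rise from a fall. Without replicate 1 of rapamycin the value was 3.57 with an adjusted p of 0.0397, its rapamycin arm being the lone library at 459, and without replicate 2 it was 0.13. Without replicate 1 of SL0101 the SL0101 value was -0.34. Rapamycin against SL0101 gave 1.32 (-3.41 to 6.06, limma adjusted p = 0.7), and -0.40 without replicate 2 of rapamycin.

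In all, 2 of 4 members passed for rapamycin, where 11.7% of genes tested did, 3 of 4 for SL0101, where 10.9% did, and 1 of 4 between the inhibitors, where 8.87% did. Every member that passed against DMSO was lower with the inhibitor. Of all genes that passed, 749 of 1386 were lower with rapamycin and 683 of 1284 with SL0101, or 6.35% and 5.79% of genes tested. The member that passed between the inhibitors was higher in rapamycin, as were 523 of the 1047 genes that passed there, or 4.43% of genes tested. In these cells the neutrophil and progenitor markers moved as well. The 9 late neutrophil genes tested summed to 114842 to 159428 in DMSO, 62728 to 96675 in rapamycin and 54048 to 81458 in SL0101, and 2 fell with rapamycin, Ltf (-0.65) and Ngp (-0.57), and 6 with SL0101, led by Retnlg (-2.70) and Mmp8 (-2.47). The 10 granulocyte progenitor genes summed to 12314 to 13546 in DMSO, 59731 to 59918 in rapamycin and 25445 to 33332 in SL0101, and 6 rose with rapamycin and 4 with SL0101, among them Mpo and Elane. The monocyte list summed to 6635 to 7655 in DMSO, 3742 to 4297 in rapamycin and 3640 to 3836 in SL0101, with 3 and 4 of 7 tested falling. C1qa of that list was at 0 in all Hoxb8 libraries. The part of these changes in the Ifitm differences was not tested.

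**Figure D2:**
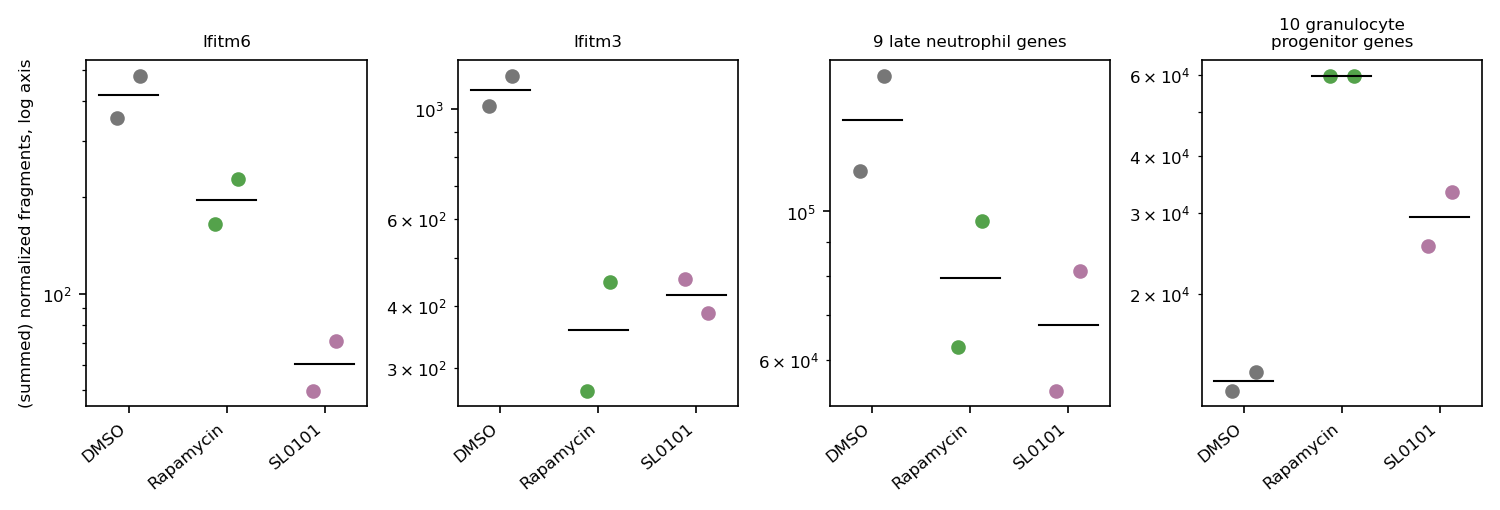
Normalized fragments of Ifitm6 and Ifitm3, and sums over the late neutrophil and granulocyte progenitor lists, in each Hoxb8 library (log axes, each with its own range; points are libraries, bars group means). Ifitm6 is lowest in SL0101 at 49.8 and 71.2, Ifitm3 is lower in both inhibitors than in DMSO, and the progenitor sum is highest in rapamycin at 59731 to 59918.

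Interferon pathway genes were read as a list of 19 ligands, receptors and signal carriers, of which 16 were tested. Ifna4, Ifnb1 and Ifng were the only interferon genes of the list, and others were not looked up. Ifna4 and Ifnb1 were listed at 0 in all 18 libraries, and Ifng reached 1.62 in 1 Raptor fl/fl library and was at 0 in the others. In Raptor KO, limma called 0 of 16, where 3.94% of all genes tested passed; 1 was higher and 2 were lower at an unadjusted p under 0.05, and voom weights also gave 0. With only the groups compared in the fit, 1 was called higher and 1 lower. In Tsc2 KO 1 passed, where 12.4% of genes did: Jak1, the kinase shared by both receptor types, rose by 0.51 (limma adjusted p = 0.0469). That call was lost with quantile normalization, a common library total, voom weights or no filter, and without replicate 1 or 3 of Tsc2 fl/fl or replicate 2 or 3 of Tsc2 KO. The receptor chains Ifnar1 and Ifngr1 were 153 ± 10.5 and 913 ± 36.6 in Raptor controls, against 175 ± 20.2 and 767 ± 7.17 in Raptor KO (n = 3). Neither passed.

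In Hoxb8 cells 3 of the 16 genes tested fell with rapamycin and 2 with SL0101, where 6.35% and 5.79% of all genes tested fell. Irf7, a transcription factor that amplifies the interferon response, fell by 2.13 in rapamycin and 1.99 in SL0101 (limma adjusted p = 0.0196 and 0.0322). Irf8, which directs monocyte development, fell by 1.52 and 1.53 (limma adjusted p = 0.00112 and 0.00143). Ifngr2, a chain of the interferon gamma receptor, fell by 0.64 in rapamycin (limma adjusted p = 0.0052), and its difference between rapamycin and SL0101 was -0.70 (limma adjusted p = 0.0049). The count for rapamycin was 1 without either DMSO library and 5 without rapamycin replicate 1. For SL0101 it was 0 without DMSO replicate 2, and 1 without DMSO replicate 1 or SL0101 replicate 1.

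Of 40 other genes that interferons induce, 39 were tested in GMPs. In Raptor KO, 0 rose and 3 fell, where 2.42% of genes tested fell, with a median log2 difference of -0.38 against 0.03 over all genes. Those that fell were Ifi27l2a (-3.67), the nucleotide kinase Cmpk2 (-1.06) and the GTPase Ifi47 (-0.60), with limma adjusted p of 0.00142, 0.0312 and 0.0338. At an unadjusted p under 0.05, limma gave 0 higher and 11 lower, and with voom weights 0 rose and 2 fell. Ifitm1, at 1.56, and Ifitm3, at 0.91, lay on the other side of 0 from the genes of this list that passed. Since the knockouts chose the family, nothing is read from this. Isg15, a ubiquitin-like protein, stood at 10.4 ± 4.17 in Raptor controls and 3.72 ± 3.53 in Raptor KO, and Bst2, which tethers budding virus, at 181 ± 26.5 and 202 ± 13.2 (n = 3), neither passing.

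In Tsc2 KO, 1 gene of the list rose and 6 fell, where 7.12% of genes tested fell, with a median of -0.22 against -0.02 over all genes. Gbp3 (-1.38), the immunoproteasome subunit Psmb8 (-1.22), the RNA sensor Ddx58 (-1.15) and Trim30a (-1.08) fell, with limma adjusted p of 0.0248, 0.0248, 0.0212 and 0.00999. Psmb9 and the peptide transporter Tap1 also fell, and the GTPase Irgm1 rose by 0.66 (limma adjusted p = 0.0338). At an unadjusted p under 0.05, 5 were higher and 10 lower. The count that rose was 0 with only the groups compared in the fit and without replicate 2 or 3 of Tsc2 KO or replicate 1 of its controls, 2 without Tsc2 fl/fl replicate 2 and 3 without Tsc2 KO replicate 1. No gene of the list had a difference as low as that of Ifitm1, but that value chose the family, so nothing is read from this. The count that fell was 3 without replicate 1 or 3 of Tsc2 fl/fl, 2 without replicate 2 of Tsc2 KO and 1 without replicate 3 of Tsc2 KO. In Raptor KO it was 2 without replicate 1 of Raptor KO and 1 without any other single library.

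In Hoxb8 cells, 31 of the 40 were tested. With rapamycin, 0 rose and 1 fell, Ifi27l2a at -2.42 (limma adjusted p = 0.0262), where 6.35% of all genes tested fell. With SL0101, where 5.79% of all genes tested fell, 0 rose and 4 fell: Parp14 (-1.31), Trim30a (-1.29), Ddx58 (-1.09) and Samd9l (-0.75). At an unadjusted p under 0.05, 1 was higher with rapamycin and 0 with SL0101, and voom weights gave 0 risers in both. Without DMSO replicate 1 or DMSO replicate 2 the rapamycin count was 0, and without rapamycin replicate 1 it was 2. Without DMSO replicate 1, DMSO replicate 2 or SL0101 replicate 1 the SL0101 count was 1. Between the inhibitors, 4.43% of all genes tested were higher in rapamycin. Trim30a, Ddx58 and Ly6e were higher in rapamycin than in SL0101, by 1.54, 0.94 and 0.59, as Ifitm6 was by 1.69. Of these 3 calls on the list, 1 was made without either SL0101 library, 2 without rapamycin replicate 1 and 2 with only the groups compared in the fit.

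**Figure D3:**
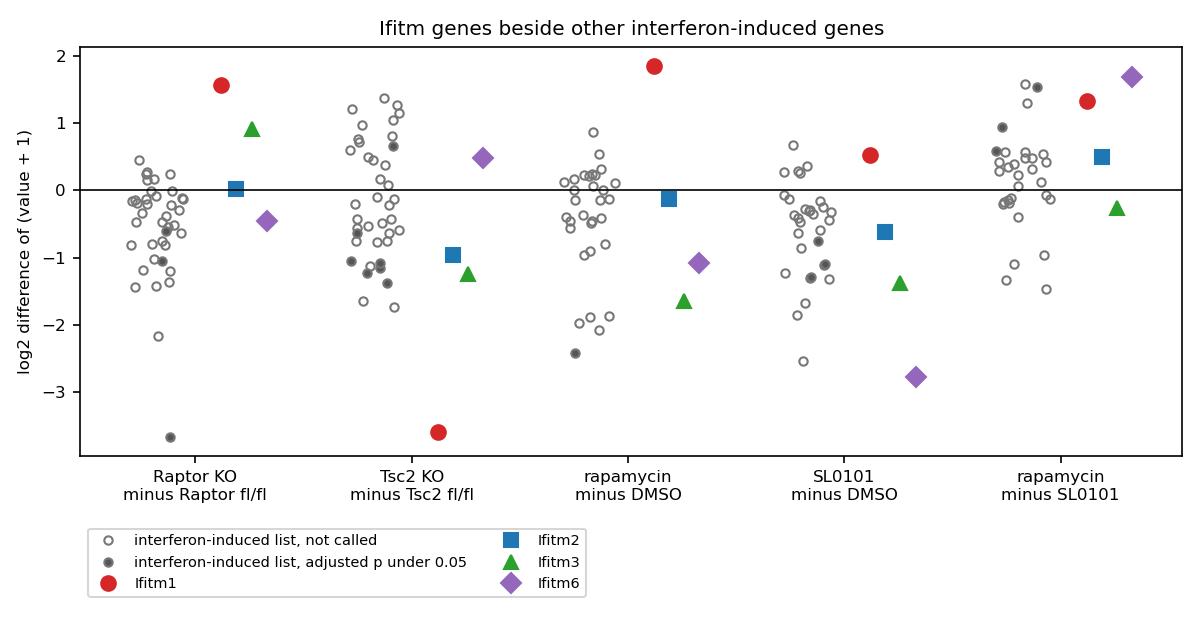
Log2 differences of value plus 1 for the 4 members (coloured) and the other interferon-induced genes tested (grey circles, filled where limma's adjusted p was under 0.05), in 5 comparisons. Ifitm1 sits at 1.56 in Raptor KO and at -3.59 in Tsc2 KO, the values that chose the family, and Ifitm6 is the lowest point for SL0101 at -2.77.

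Ifitm proteins bind or are modified by other proteins, and 12 of 13 such genes were tested, among them the tetraspanins Cd81 and Cd9 and the palmitoyl transferases Zdhhc20 and Zdhhc7. In Raptor KO limma and voom weights called 0, with 1 higher at an unadjusted p under 0.05, and with only the groups compared in the fit 1 was called higher and 1 lower. In Tsc2 KO only Cd9 passed, at 85.1 ± 40.2 against 169 ± 31.7 in Tsc2 fl/fl (n = 3), a log2 difference of -1.07 (limma adjusted p = 0.00785), with 3 of the list higher and 3 lower at an unadjusted p under 0.05. With only the groups compared in the fit 0 were lower, with the replicate block or without Tsc2 fl/fl replicate 2 there were 2, and without Tsc2 KO replicate 1 there were 3. When replicate 1 of Tsc2 KO, or replicate 2 or 3 of its controls, was left out, 1 was higher. Cd9 also fell in rapamycin by 1.46 and in SL0101 by 1.71 (limma adjusted p = 0.011 and 0.00412). Neither fall passed without DMSO replicate 1 or without DMSO replicate 2. Zdhhc7 and Atp6v0b, a subunit of the proton pump that acidifies endosomes, also fell in rapamycin, by 0.73 and 0.55. Of the 3 falls with rapamycin, 0 were left without either DMSO library, 1 without rapamycin replicate 1 and 2 without rapamycin replicate 2. Cd81, which binds Ifitm proteins at the membrane, was 709 ± 200 in Tsc2 controls and 970 ± 88.0 in Tsc2 KO and did not pass (limma adjusted p = 0.0615). The share of all genes tested that passed was 3.94% in Raptor KO, 12.4% in Tsc2 KO, 11.7% with rapamycin and 10.9% with SL0101.

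Genes of stem cells and early progenitors were read beside the family, 23 in the table and 22 tested in GMPs. Flt3, a cytokine receptor of early progenitors, and Kit, the stem cell factor receptor, rose in Raptor KO by 1.22 and 0.61 (limma adjusted p = 0.0273 and 0.00757). The list's median was 0.31 against 0.03 over all genes, of which 3.94% passed in either direction. Neither passed without replicate 2 or without replicate 3 of Raptor KO, and 1 passed without replicate 2 or 3 of Raptor fl/fl or replicate 1 of Raptor KO. In Tsc2 KO 13 fell and 0 rose, where 7.12% of genes tested fell, with a median of -1.50 against -0.02 over all genes. Among those that fell were Cd27 (-2.36), Hoxa9 (-1.73) and Angpt1 (-1.69). The count that fell ranged from 7 without replicate 1 of Tsc2 fl/fl and 8 without replicate 3 of Tsc2 KO to 13. In Hoxb8 cells Egfl7, Myb and Kit rose with rapamycin, by 2.77, 1.49 and 1.15, and with SL0101, by 2.87, 0.56 and 0.99, and Cd48 fell with SL0101 by 0.87. The list's 14 genes tested had medians of 0.55 and 0.02, with 7 above and 7 below 0 for SL0101. Over all genes tested the medians were -0.01 and -0.02, and 11.7% and 10.9% passed in either direction. With a library left out, 2 to 4 rose with rapamycin and 1 to 2 with SL0101: 1 without DMSO replicate 2 or either SL0101 replicate, and 2 without DMSO replicate 1. Cd48 did not pass without SL0101 replicate 1. For rapamycin the count was 2 without either DMSO library or rapamycin replicate 2. Kit and Flt3 are also gates of the sort. The part of these genes' cells in the Ifitm1 values was not tested.

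Markers of other cells moved in the same libraries. Among all genes tested, 3.94% passed in Raptor KO, with 2.42% falling, and 12.4% passed in Tsc2 KO, with 7.12% falling. The 11 basophil, mast cell and eosinophil genes summed to 5738 to 11584 in Raptor controls and 14770 to 18468 in Raptor KO, where limma called 0 of 10 tested and 3 were higher at an unadjusted p under 0.05. They summed to 3130 to 5125 in Tsc2 controls and 4113 to 10796 in Tsc2 KO, where 3 of 10 rose, Cma1 (3.44), Mcpt8 (2.38) and Il1rl1 (1.26). The 10 erythroid genes summed to 4245 to 4716 and 2129 to 2701 in the Raptor pair, and to 3351 to 10983 and 13086 to 25964 in the Tsc2 pair, with 3 falling in Raptor KO, among them the globin gene Hbb-b1 (-3.61) and Alas2 (-2.83), and 5 rising in Tsc2 KO, led by Car2 (2.04) and Car1 (1.69). The 8 B-lymphoid genes summed to 740 to 1067 and 106 to 148 in the Raptor pair and to 328 to 539 and 20.7 to 74.2 in the Tsc2 pair, and 7 of 8 fell in Raptor KO and 6 of 8 in Tsc2 KO. The 6 megakaryocyte genes summed to 1015 to 1242 and 395 to 435 in the Raptor pair and to 375 to 710 and 159 to 179 in the Tsc2 pair, where 3 and 4 fell, Pf4 by 2.65 and 1.99 among them. The 9 late neutrophil genes summed to 686 to 1928 and 428 to 520 in the Raptor pair, where Ltf and Camp fell by 2.81 and 3.06, and to 420 to 1555 and 1058 to 3405 in the Tsc2 pair, where limma called 0, with 1 lower at an unadjusted p under 0.05. In the basophil, erythroid and B-lymphoid lists every gene was above 0 in at least 1 GMP library. The part of these cells in the Ifitm values was not tested.

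**Figure D4:**
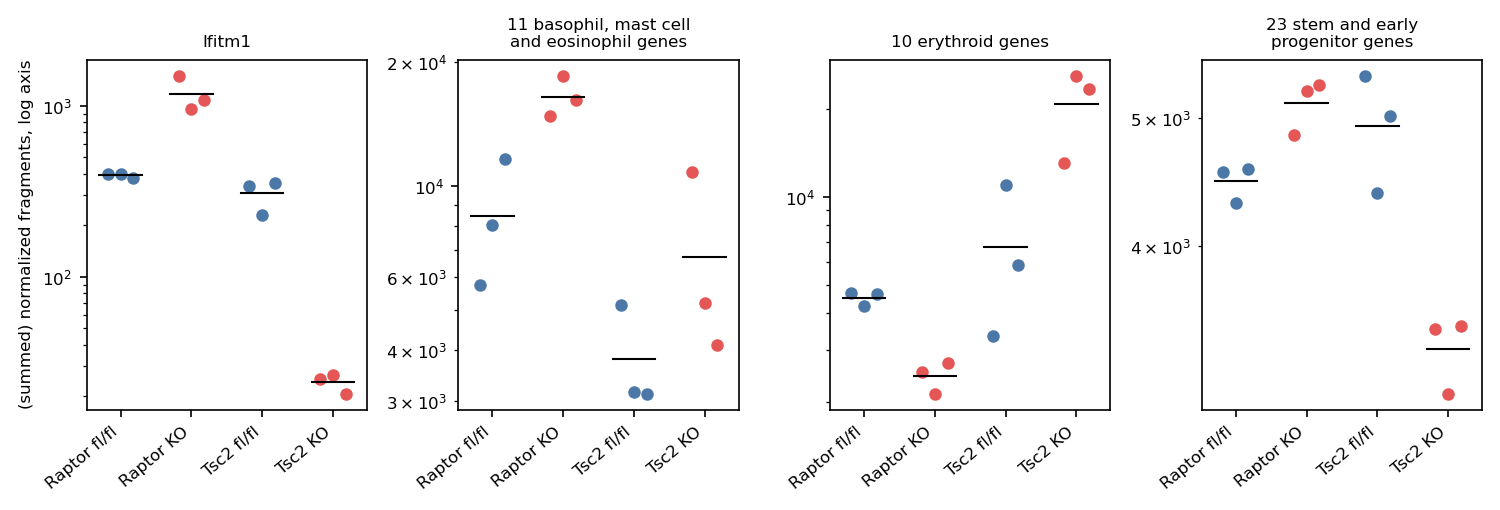
Normalized fragments of Ifitm1 and sums over 3 marker lists in each GMP library (log axes, each with its own range; points are libraries, bars group means). Ifitm1 is highest in Raptor KO and lowest in Tsc2 KO. The basophil, mast cell and eosinophil sum is highest in Raptor KO, the erythroid sum is highest in Tsc2 KO, and the stem and early progenitor sum is lowest in Tsc2 KO.

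The members lie next to each other on chromosome 7, and the 5 genes on each side were looked up by RefSeq order to see how far the differences reach. Of these 10 genes 8 were tested in GMPs and 6 in Hoxb8 cells. In Raptor KO, where 3.94% of all genes tested passed, limma called 0 higher and 1 lower (3 at an unadjusted p under 0.05), the proteasome subunit Psmd13 (-0.66). In Tsc2 KO, where 12.4% of all genes tested passed, 2 were higher, Psmd13 (0.46) and Ptdss2 (0.69), and 2 lower, Sigirr (-1.02) and Sirt3 (-0.72). B4galnt4, just beyond Ifitm6, had 2.06 in Raptor KO and -1.16 in Tsc2 KO at group means of 0.511 to 6.22 in the Raptor pair and 0.229 to 3.20 in the Tsc2 pair, and neither passed. Flanking differences ran from -0.66 to 2.06 in the Raptor comparison, where Ifitm1, Ifitm2 and Ifitm3 were at 1.56, 0.01 and 0.91. In the Tsc2 comparison they ran from -1.16 to 0.69, and those of Ifitm1, Ifitm2 and Ifitm3 were -3.59, -0.97 and -1.24. Of the 8 flanking genes tested, 6 had opposite signs in the 2 knockouts. Since the knockouts chose the family, nothing is read from these values. In the 3 Hoxb8 comparisons limma called 0 of the 6 flanking genes tested, with 1, 0 and 3 at an unadjusted p under 0.05 for rapamycin, SL0101 and rapamycin against SL0101.

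**Figure D5:**
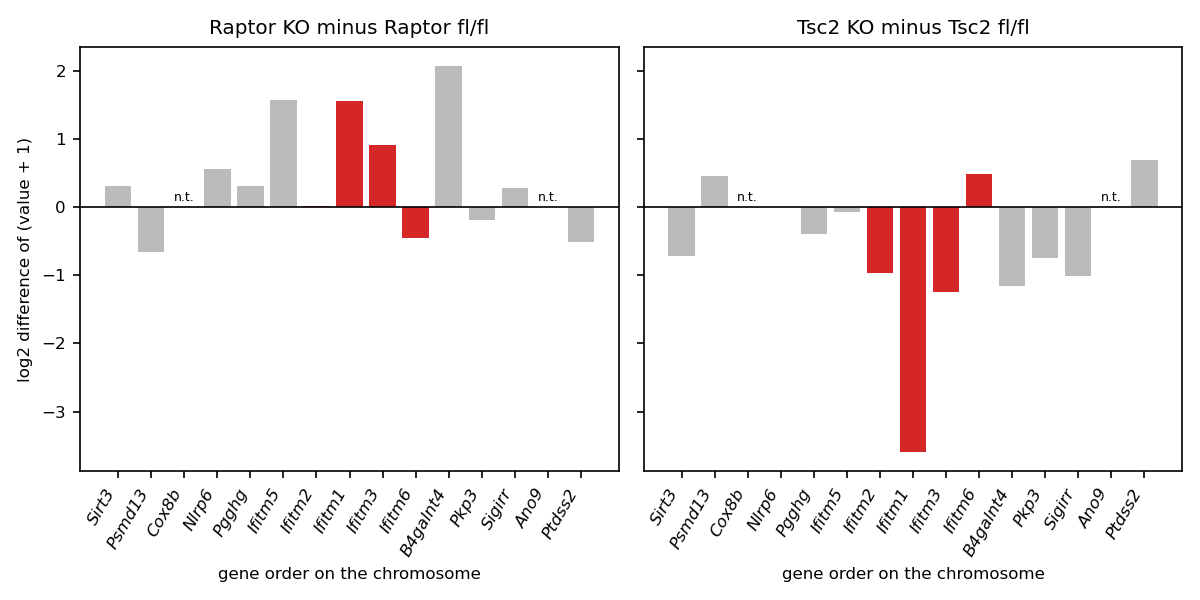
Log2 difference of value plus 1 for genes in their order along the chromosome, in the Raptor comparison (left) and the Tsc2 comparison (right), with the 4 members in red, other genes in grey, and n.t. for genes not tested. Nlrp6 was at 0 in both Tsc2 groups. Ifitm1 has the lowest bar on the right at -3.59. The sign of Ifitm2 on the left, and of Ifitm6 in both panels, changed when single libraries were left out.

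Genes with the pattern most like each member were found by the root mean square (RMS) difference in log2 of value plus 1 after centring, among 11328 genes. For Ifitm1 over 18 libraries these were Dmkn (1.10), Sh2d5 (1.11), Rhoj (1.16), Slco3a1 (1.17) and Tespa1 (1.18), compared with an RMS of 2.04 of Ifitm1 about its own mean. Over the 12 GMP libraries they were Rhoj (0.78), Scarf1 (0.79), Fgd2 (0.83), Gpc3 (0.84) and Ffar2 (0.84). Rhoj, a small GTPase, was in both sets, at 9.44 ± 6.15 in Raptor fl/fl, 39.2 ± 7.44 in Raptor KO, 13.0 ± 2.92 in Tsc2 controls and 0.468 ± 0.407 in Tsc2 KO (n = 3).

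For the other members, whose RMS about their own means over 18 libraries was 0.68 for Ifitm2, 1.14 for Ifitm3 and 2.32 for Ifitm6, distances scale with that spread. Ifitm2 was most like Il2rg (0.23), Parvg (0.24) and Cst3 (0.25) over 18 libraries, and most like Cst3 (0.10), which encodes the protease inhibitor cystatin C, over the 12 GMP libraries. Ifitm3 was nearest to Dennd2d in both (0.50 and 0.25). Ifitm6 was nearest to Crispld2 (0.65), Gpr141 (0.76) and the neutrophil gelatinase Mmp9 (0.77) over 18 libraries. Mmp9 was at 293 and 362 in DMSO, between 102 and 193 in rapamycin and between 55.3 and 75.2 in SL0101. Within the family Ifitm2 and Ifitm3 differed by an RMS of 0.50 over the GMP libraries and Ifitm1 and Ifitm3 by 1.15. Over 18 libraries these distances were 0.60 and 2.06, the latter beside an RMS of 2.04 of Ifitm1 about its own mean. The GMP libraries include the knockouts that chose the family. These distances describe libraries that share their groups and size factors.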

How the data were processed

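The authors deposited 1 table of signal values, fragments per gene divided by 1 size factor per library. That reading rests on the values: 98.9% to 99.0% of non-zero values in a library were whole multiples of 1 step within 0.01. Among the tools in the submitters' processing notes are TopHat2 2.0.10 and Cufflinks 2.2.1 with Cuffnorm, and BWA. The build of the genome was not given in the sources used here. Groups were taken from the sample titles, because the genotype field of the Tsc2 samples names Raptor.

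Differences were computed on log2 of the value plus 1 with limma 3.58.1 in R 4.3.3 (trend and robust options), separately for 12 GMP libraries and 6 Hoxb8 libraries. Genes with a value of at least 1 in 3 GMP or 2 Hoxb8 libraries were tested, 13237 and 11804 genes. Benjamini-Hochberg adjustment ran over all genes tested, with a threshold of 0.05. The code was tested on simulated counts in which 200 genes were changed, with a spread set in advance rather than taken from each gene. For Raptor it recovered 6% of 2-fold and 97.5% of 4-fold changes. For rapamycin against DMSO it recovered 0% and 86%. A gene or list reported as not passing may therefore still differ by 2-fold. These shares hold for the spread set, and some genes passed at less than 2-fold, such as Psmd13 in Raptor KO (-0.66). The share recovered at the spread of each gene was not tested. The members, gene lists and motifs were chosen with earlier results of these data known. Named genes were those with the nearest pattern, up to 4 per list that passed, and a few set by name; some list genes are not reported here. Flanking genes and the marker genes named were added for reading. Sequences came from RefSeq (GRCm38.p6) and lengths from GENCODE vM21. Alternatives covered scaling, pseudocount, filter, weights, replicate block, the groups fitted and each library left out.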

Additional observations from a re-analysis of the deposited data

Results flagged for a closer look

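Ifitm1 and Ifitm3 are listed because all libraries of one knockout moved one way and all libraries of the other the opposite way. For Ifitm1 the log2 differences were 1.56 in Raptor KO and -3.59 in Tsc2 KO, and for Ifitm3 they were 0.91 and -1.24. The difference between the knockouts was not tested, since it is what chose the family.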

How the results depend on the processing

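For the members in the knockouts, 28 alternative values other than those with a single library left out moved by less than 1 SD. That SD was pooled over the log2 values of the groups compared. The 48 values with a library left out cannot be judged by this rule, since dropping 1 of 3 libraries cannot move a mean that far. Their ranges are given instead. With a library left out, Ifitm1 ran from 1.37 to 1.69 and from -3.80 to -3.48, Ifitm3 from 0.66 to 1.08 and from -1.55 to -0.98, and Ifitm2 in Tsc2 KO from -1.20 to -0.81. Ifitm6 ran from -0.88 to 0.21 and from -0.08 to 1.02, on both sides of 0. In Hoxb8 cells 94 alternatives other than leaving out a library kept the direction and the side of the threshold and 2 did not: for Ifitm2 in rapamycin against SL0101, quantile normalization gave 0.57 (limma adjusted p = 0.0368) and the replicate block 0.50 (limma adjusted p = 0.00398).

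With single libraries left out, the rapamycin differences from DMSO ran from 0.13 to 3.57 for Ifitm1, -0.40 to 0.15 for Ifitm2 and -1.32 to -0.85 for Ifitm6. The SL0101 differences ran from -0.34 to 1.39 for Ifitm1 and -0.82 to -0.43 for Ifitm2. Between the inhibitors the ranges were -0.40 to 3.05 for Ifitm1, 0.22 to 0.77 for Ifitm2 and -0.63 to 0.09 for Ifitm3. Ifitm3 passed there without rapamycin replicate 2 (limma adjusted p = 0.0312, with 1 rapamycin library and the spread taken from the other groups) and turned to 0.094 without rapamycin replicate 1. The calls of Ifitm3 against DMSO, and of Ifitm6 in SL0101 and between the inhibitors, held in every alternative run.

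Calls over all genes were 522 for Raptor, 1638 for Tsc2, 1386 for rapamycin, 1284 for SL0101 and 1047 between the inhibitors. With only the groups compared in the fit they were 1249 for Raptor, 471 for Tsc2 and 542 between the inhibitors. With a library left out they ran from 146 to 402, 601 to 2498, 540 to 1164, 323 to 868 and 128 to 863. Interferon-induced genes that fell in Raptor KO numbered 7 with quantile normalization and 8 with only the groups compared, and 1 in Tsc2 KO with only the groups compared. The cause of these changes was not tested.

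Same-numbered libraries did not deviate together in every pair (r from 0.010 to 0.047 for Raptor, -0.03 to 0.245 for Tsc2, 0.005 to 0.046 in Hoxb8 cells), so the numbers were not taken as pairs. For Tsc2, r was 0.217, 0.245 and -0.032 in replicates 1, 2 and 3, and replicate 2 had Y-linked expression in both groups. Whether same-numbered Tsc2 libraries came from matched mice was not tested. The replicate block gave 1691 calls between the inhibitors. The edgeR test was not run, because not every value of the table was a whole number of fragments. With 2 libraries a group in Hoxb8 cells, and 3 to 31 fragments of Ifitm6 in GMPs, small differences could not be resolved.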
